A study of Mus musculus with 4 samples.

Results

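The 37 mitochondrially encoded genes were taken as every row of the counts table placed on chromosome M, out of 50559 rows in all. They are 13 mRNA genes, 2 rRNA genes and 22 tRNA genes. The values were read counts per gene from poly(A)+ RNA-seq of E14, a mouse embryonic stem cell (ESC) line. Such lines derive from the inner cell mass of the blastocyst. There were 4 libraries, 1 for each group, so no group had a replicate and no difference between groups could be tested. All cells carried a lentiviral short hairpin RNA and a vector. The groups were a scrambled hairpin with an empty vector (shscr_EV), a Ythdf2 hairpin with that vector (shYthdf2_EV), and the same hairpin with either wild-type YTHDF2 (shYthdf2_WT) or a YTHDF2 mutant (shYthdf2_Mut, mutated in the pocket that reads N6-methyladenosine). The comparisons ask what loss of the reader does and whether the wild-type and the mutant protein restore it. Libraries held between 31533129 and 35742335 counted reads. Ythdf2 itself had 2806 reads in shscr_EV, 662 in shYthdf2_EV, 7661 in shYthdf2_WT and 6925 in shYthdf2_Mut. It was thus lowest in shYthdf2_EV, and both libraries with a YTHDF2 construct held more than shscr_EV. All 8 ESC markers had reads in every library, with summed levels of 5375 to 6030 CPM (counts scaled to a common library total), against 22.7 to 39.2 for 7 fibroblast or feeder cell markers, 12.2 to 23.2 for 6 primitive endoderm markers and 92.7 to 126 for 6 trophectoderm markers. Their part in the values below was not tested.

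The mitochondrial genome is a small circle that codes for core subunits of the respiratory chain and for the RNAs that translate them. Both strands are transcribed as long precursors. Most mRNAs and rRNAs lie between tRNAs, and cutting the tRNAs out frees them, after which most mRNAs receive a short poly(A) tail in the matrix. YTHDF2 is a cytoplasmic reader of N6-methyladenosine that brings mRNAs to the deadenylase machinery. Nuclear genomes also hold old insertions of mitochondrial DNA, and reads from such a copy and from the organelle look alike.

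Of the 13 mRNA genes, 7 share long stretches with annotated nuclear transcripts. Each gene was cut into all windows of 150 bases, the length of a read, and each window was looked up in every other annotated mouse transcript. Windows with an exact match made up 23.6% of COX1, 59.2% of ND4, 97.0% of ND3, 98.0% of ND4L, 99.4% of COX2, 99.4% of ATP6 and 99.8% of COX3. The matches fell in 8 annotated pseudogenes. The closest copies, 1 for each of the 7 genes, lie in a row on chromosome 1 in the same order as on the mitochondrial genome, and Gm13341 held further windows of COX2. No window of ND1, ND2, ND5, ND6, CYTB, ATP8 or the rRNA genes had such a match. The sequences below show how close the copies are, with the bases that differ in capitals. They are from GENCODE vM21 transcripts of GRCm38, 5′ to 3′, and positions count from 1 at the first base of the mitochondrial gene.
ATP6 bases 1 to 60: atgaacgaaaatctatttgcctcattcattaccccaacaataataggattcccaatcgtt
Gm10925 copy of ATP6: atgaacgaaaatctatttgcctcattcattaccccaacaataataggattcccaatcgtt
ND3 bases 1 to 60: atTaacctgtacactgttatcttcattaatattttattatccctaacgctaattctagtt
Gm28438 copy of ND3: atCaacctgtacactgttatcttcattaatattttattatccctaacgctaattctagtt
COX1 bases 1054 to 1113: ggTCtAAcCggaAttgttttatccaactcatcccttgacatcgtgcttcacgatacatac
Gm29216 copy of COX1: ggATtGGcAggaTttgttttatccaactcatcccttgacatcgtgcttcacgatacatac

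ATP6 and its copy were identical over all 678 bases of the copy. The same held for COX2 over 681 bases, COX3 over 783, ND4L over 294 and the first 876 bases of ND4. The ND3 copy had 1 difference in 345 bases, T3C. The COX1 copy covered the last 492 bases of the gene and had 6 differences, T1056A, C1057T, A1059G, A1060G, C1062A and A1066T, all at its start. Per the file header, reads that aligned to more than 1 place were not counted. ATP6 and its copy both had reads all the same, and what placed those reads was not tested.

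Among the mRNA genes, the density of counted reads was lowest in a run that holds most of these stretches. Density was taken as reads per start position at which a 150-base read touches no other gene. COX2, ATP8, ATP6, COX3, ND3 and ND4L, a run of neighbouring mRNA genes, held 0.755 to 23.3 reads per such position across genes and libraries. The other 7 mRNA genes held 61.3 to 908. The part of the copies in the low density was not tested. ND4, copied over 59.2% of windows, was among the dense genes. It had 503 such positions without a copied window, against 1 to 7 in COX2, ATP6, COX3, ND3 and ND4L. ATP8 was the one gene of the low run without a copied window, and only 13 start positions were its own because it overlaps ATP6. Only annotated transcripts were searched, so a copy of ATP8 outside them would have been missed. Where gene and copy are identical, their reads cannot be told apart by sequence.

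**Figure D1:**
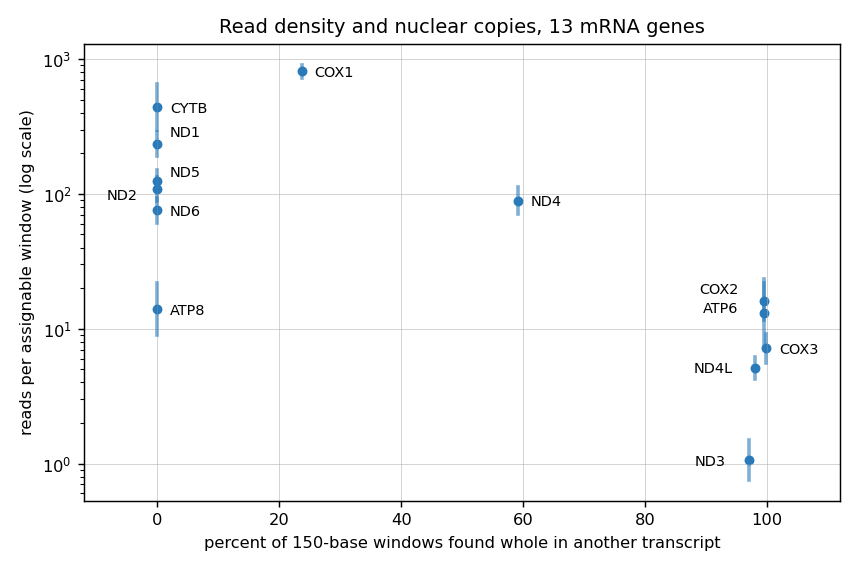
Read density against nuclear copies for the 13 mRNA genes. The x axis is the percent of 150-base windows of the gene found whole in another transcript, the y axis (log scale) is reads per assignable start position, lines span the lowest to the highest of 4 libraries and points mark the geometric middle. COX2, ATP6, COX3, ND3 and ND4L at the right and ATP8 at the left lie at or below 23.3 reads per position, and the other 7 genes at or above 61.3.

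The tRNA genes were limited by length instead. They span 59 to 75 bases, and 21 of the 22 rows (TrnF, TrnV, TrnL1, TrnI, TrnQ, TrnM, TrnW, TrnA, TrnN, TrnC, TrnY, TrnS1, TrnD, TrnK, TrnG, TrnR, TrnH, TrnS2, TrnL2, TrnE and TrnT) had no position at which a 150-base read touches only that gene. All 21 were listed with 0 reads in all 4 libraries. A count of 0 allows up to 3 reads, or 0.0839 to 0.0951 CPM, but here it says nothing about the tRNA. The exception was TrnP, the proline tRNA (chrM:15356-15422, mm39, minus strand), which has 67 such positions because the control region beside it holds no annotated gene.
TrnP: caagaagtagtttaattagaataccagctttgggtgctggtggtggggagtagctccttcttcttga
TrnP had 1049, 1599, 1484 and 1082 reads in shscr_EV, shYthdf2_EV, shYthdf2_WT and shYthdf2_Mut. Reads that span the gene and the control region were counted to it on either strand, so they need not come from the mature tRNA.

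Mitochondrial genes took 8.44% of all counted reads in shscr_EV (95% Wilson interval 8.43 to 8.45). The share was 6.75% in shYthdf2_EV (6.75 to 6.76), 6.34% in shYthdf2_WT (6.33 to 6.34) and 6.14% in shYthdf2_Mut (6.13 to 6.15). The scrambled control thus stood highest, and neither rescue library was nearer to it than the knockdown library. Intervals here and below cover counting error only, and the spread between cultures is unknown. In bulk RNA, a change in mitochondrial RNA per cell and a change in the mix of cells cannot be told apart. mRNA genes made up 98.6%, 97.0%, 98.3% and 97.4% of mitochondrial reads in the same order of libraries.

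**Figure D2:**
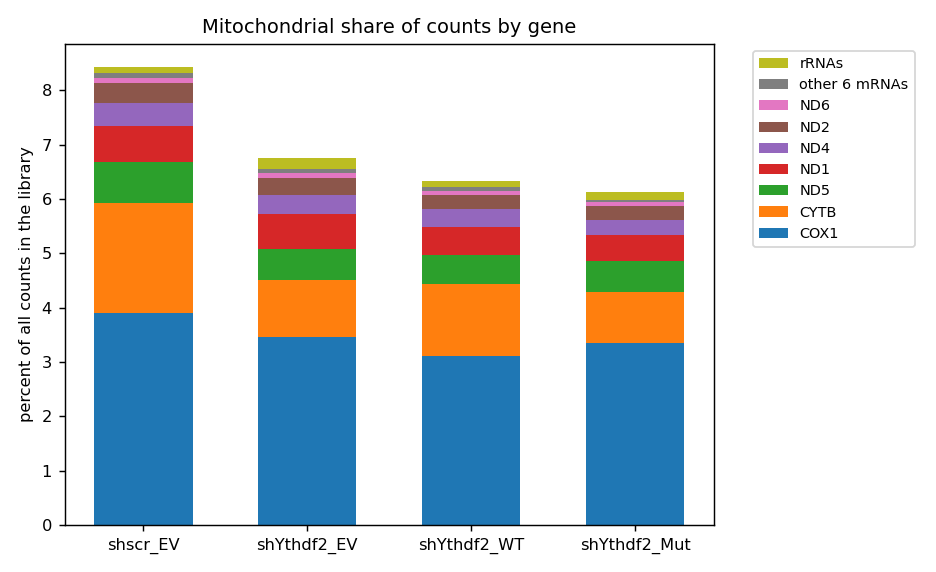
Mitochondrial share of all counts in each library, as stacked bars. The y axis is percent of all counts, and each colour is 1 gene or gene group (the 6 other mRNAs are COX2, COX3, ATP6, ATP8, ND3 and ND4L, and TrnP is left out as too small to see). The bars reach 8.44, 6.75, 6.34 and 6.14%, and COX1 and CYTB together fill 66.8 to 70.2% of each.

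Levels between genes were compared as RPKM, reads divided by gene length and by library total. COX1, the catalytic subunit of complex IV, had the highest RPKM of all genes in every library, 20081 to 25292. CYTB, the only mitochondrial subunit of complex III, was next in every library at 8215 to 17594. ND1, a membrane subunit of complex I, followed at 5122 to 6799, and these 3 ranges did not overlap. ND5 (2918 to 4222), ND2 (2411 to 3517) and ND4 (2004 to 3065), the pump-like subunits of complex I, had ranges that overlapped one another. ND6, the complex I subunit coded on the other strand, lay below them at 1334 to 1946. mt-Rnr1, mt-Rnr2, TrnP, COX2, ATP6 and COX3 fell between 143 and 839 with ranges that overlapped in part. ND4L reached 64.2 to 91.4, ATP8 18.0 to 43.1 and ND3 13.8 to 26.4. COX1, with 23.6% of windows copied, was highest, and the genes copied over nearly their whole length filled most of the bottom. The part of the copies in this order was not tested.

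**Figure D3:**
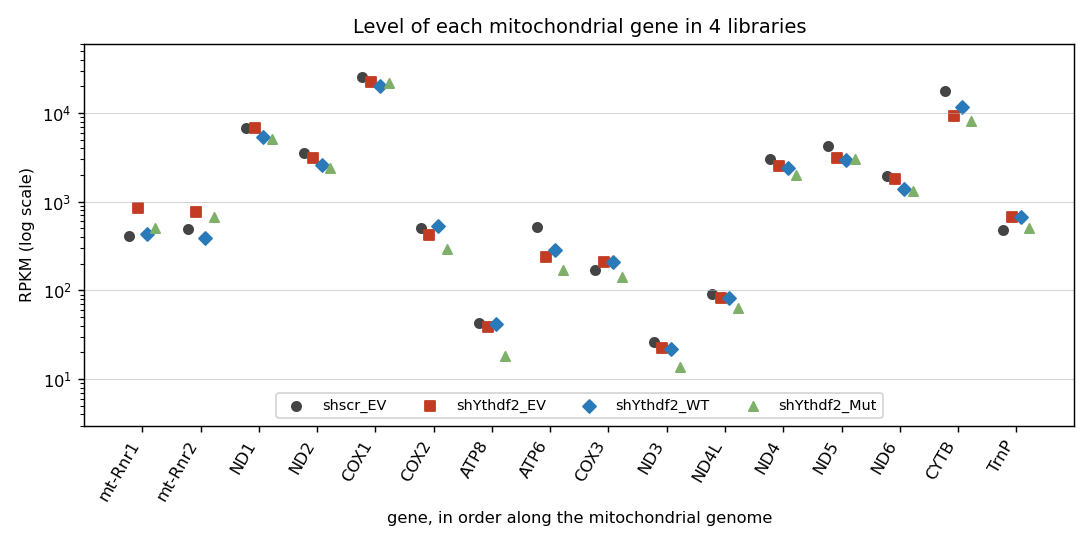
Level of the 16 mitochondrial genes with reads, in order along the genome. The y axis is RPKM on a log scale and each symbol is 1 library. Values span 13.8 for ND3 in shYthdf2_Mut to 25292 for COX1 in shscr_EV, and CYTB and ATP6 are highest in shscr_EV.

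For ratios between libraries, counts were scaled by TMM factors of 0.976 to 1.01. The 16 members with a mean count of at least 10 were examined beside all 18586 genes past that limit, and the other 21 members were the tRNA genes without reads. With 1 library per group, a gene is called lower or higher when it differs at least 1.2-fold, and log2 ratios carry a 95% counting-error interval made on read pairs.

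Against shscr_EV, the knockdown library shYthdf2_EV held less of most mitochondrial mRNAs and more of both rRNAs. Of the 16 members, 6 were lower, where 27.1% of all tested genes were lower, and 3 were higher, where 27.5% were higher. The 6 were all mRNA genes (ATP6, CYTB, ND5, ND4, COX2 and ND3), and the 3 were mt-Rnr1, mt-Rnr2 and TrnP. The median log2 ratio of the 13 mRNA genes was -0.23, beside -0.002 for all tested genes, and 12 of the 13 were below 0. At 2-fold, 1 member was lower (ATP6; 5.7% of all tested genes) and 0 were higher (7.1%).

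CYTB (chrM:14145-15288) carried most of the difference in reads. It had 651787 reads in shscr_EV, 378023 in shYthdf2_EV, 432504 in shYthdf2_WT and 296357 in shYthdf2_Mut. Its log2 ratio of knockdown to control was -0.97 (-0.98 to -0.96), which is 51.0% of the control level. COX1 (chrM:5328-6872), with 1265419, 1234412, 1010930 and 1057443 reads, was -0.22 (-0.23 to -0.22) and did not reach 1.2-fold. CYTB reads per COX1 read, a ratio within 1 library that scaling cannot alter, were 0.515 in shscr_EV, 0.306 in shYthdf2_EV, 0.428 in shYthdf2_WT and 0.280 in shYthdf2_Mut. The control and the wild-type rescue were therefore high and the knockdown and the mutant low. CYTB set against ND5, its neighbour upstream on the same strand beyond ND6, gave the same order of high and low libraries: 2.61, 1.88, 2.49 and 1.68 reads per ND5 read. Against ND1 the values were 3.09, 1.63, 2.57 and 1.92. CYTB has no copied window.

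The complex I genes were lower by less. ND5, with 249371, 201252, 173452 and 176043 reads, had a log2 ratio of -0.50 (-0.51 to -0.48), and ND4, with 136770, 123977, 107648 and 87068 reads, one of -0.33 (-0.34 to -0.31). ND2 was at -0.23 (-0.25 to -0.21) and ND6 at -0.17 (-0.20 to -0.14). ND1, the first mRNA gene after the rRNAs, was at -0.04 (-0.06 to -0.03). All 7 complex I genes were below 0 and 3 were at least 1.2-fold lower. The third was ND3, at -0.29 (-0.64 to 0.05) on 298 and 277 reads, so its interval held 0. ND4L stood at -0.21 (-0.41 to -0.02). ND6 is read from the opposite strand and was counted without regard to strand, so its reads cannot be told apart from antisense reads of the long precursor that covers it. ND6 reads per ND5 read were 0.131, 0.164, 0.136 and 0.124 in the 4 libraries.

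Among the complex IV and V genes of the copied run, ATP6, the proton channel subunit of ATP synthase, stood out at -1.15 (-1.21 to -1.08). It had 11361 reads in shscr_EV, 5834 in shYthdf2_EV, 6304 in shYthdf2_WT and 3640 in shYthdf2_Mut. Its nuclear copy Gm10925 is also a row of the table (chr1:24653052-24653732, mm39, minus strand) and had 17445, 13840, 14526 and 8329 reads. Of the reads given to the pair, ATP6 took 39.4% (38.9 to 40.0) in shscr_EV and 29.7% (29.0 to 30.3), 30.3% (29.6 to 30.9) and 30.4% (29.6 to 31.2) in the other 3 libraries. The control library thus divided these reads differently, and the other 3 divided them alike within their intervals. ND4L and its copy Gm10222 (chr1:24651485-24651781) showed no such step, with 0.285, 0.287, 0.296 and 0.280 ND4L reads per Gm10222 read. COX2, which holds the copper site that receives electrons from cytochrome c, was at -0.32 (-0.37 to -0.26), and COX3 at 0.24 (0.16 to 0.33), the only mRNA gene above 0. ATP8 was at -0.20 (-0.54 to 0.15).

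**Figure D4:**
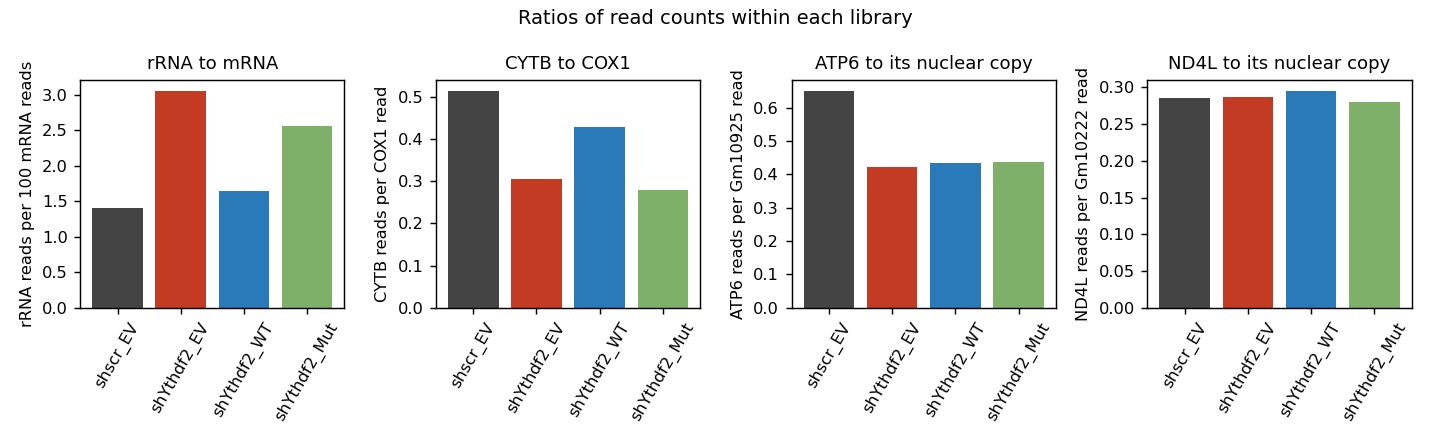
Ratios of read counts within each library, which do not depend on scaling. The y axes are rRNA reads per 100 mRNA reads, CYTB reads per COX1 read, ATP6 reads per read of its nuclear copy Gm10925 and ND4L reads per read of its nuclear copy Gm10222, and each bar is 1 library. The first ranges from 1.40 to 3.06, the second from 0.280 to 0.515, the third is 0.651 in shscr_EV and 0.422 to 0.437 elsewhere, and the last stays between 0.280 and 0.296.

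The rRNAs of the mitochondrial ribosome went the other way. mt-Rnr1, the small subunit rRNA (chrM:70-1024), had 12639 reads in shscr_EV, 28652 in shYthdf2_EV, 13469 in shYthdf2_WT and 15217 in shYthdf2_Mut. mt-Rnr2, the large subunit rRNA (chrM:1094-2675), had 24974, 42915, 19927 and 33159. The knockdown library held most of both, and mt-Rnr2 was also high in the mutant library. The log2 ratios of knockdown to control were 0.99 (0.95 to 1.04) for mt-Rnr1 and 0.60 (0.56 to 0.63) for mt-Rnr2. There were 1.40 rRNA reads per 100 mitochondrial mRNA reads in shscr_EV, 3.06 in shYthdf2_EV, 1.65 in shYthdf2_WT and 2.56 in shYthdf2_Mut. mt-Rnr2 reads per mt-Rnr1 read were 1.98, 1.50, 1.48 and 2.18, so the rRNAs did not keep 1 ratio.

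Both rRNAs together made up 0.116, 0.200, 0.102 and 0.153% of all counted reads, and poly(A) selection removes most of them. Other RNAs without a long poly(A) tail were also most abundant in the knockdown library. Of a list of 16 such nuclear RNAs, chosen after the rRNA values were seen, 15 were rows of the table, and their summed counts were 45, 189, 79 and 77 (1.39, 5.29, 2.42 and 2.44 CPM). Between 5 and 9 of them had reads in a library, and Rn7sk, the largest, had 29, 121, 41 and 34. The 65 replication-dependent histone genes, whose mRNAs end in a stem-loop in place of a tail, summed to 1018, 1955, 1338 and 1323 reads (31.4, 54.7, 41.1 and 42.0 CPM). Among the 24 of them with a mean count of at least 10, 20 were higher and 2 lower in the knockdown library, beside 27.5 and 27.1% of all tested genes. Only 6 of these 22 had an interval that left out 0. The part of poly(A) selection in the rRNA values was not tested.

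Base composition also differed from that of most genes. The mRNA members held 31.9 to 41.1% G and C, and 1420 nuclear genes within that range had a median log2 ratio of 0.09 in this comparison. When each ratio was taken relative to nuclear genes of the same GC content and length, the median of the 13 mRNA genes became -0.60, and CYTB was at -1.18. In the same setting 12 members were lower and 2, both rRNAs, higher, while COX3 (-0.017) and TrnP (-0.18) passed to below 0. Counting calls under this setting was chosen after seeing the data, and the share of all tested genes called in it was not computed. Summing the reads of the 13 genes before taking the ratio, an alternative chosen after seeing the data, gave -0.39, since CYTB and COX1 then weigh most.

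**Figure D5:**
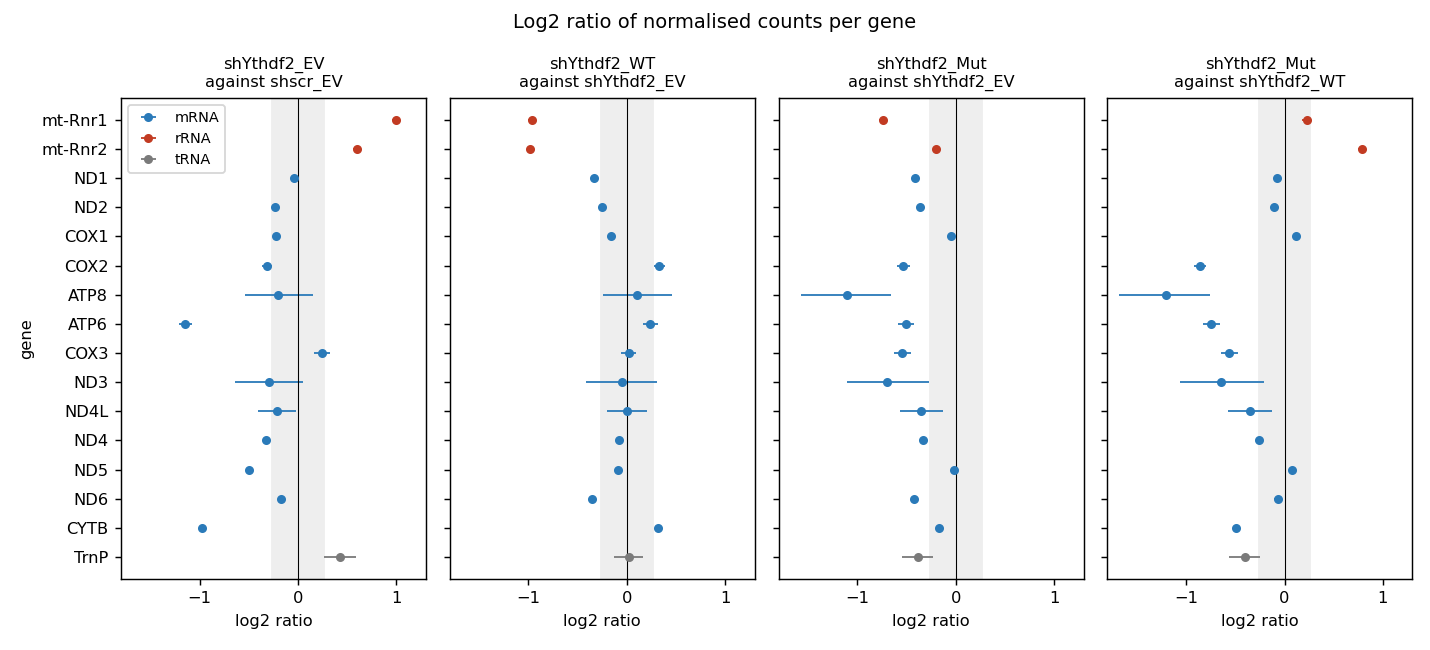
Log2 ratio of normalised counts for the 16 members, 1 panel per comparison. The x axis is the log2 ratio, bars are 95% counting-error intervals, the grey band is a change below 1.2-fold and colours mark mRNA, rRNA and tRNA genes. In the first panel both rRNAs lie to the right (0.60 and 0.99) with CYTB (-0.97) and ATP6 (-1.15) far to the left, and in the third all 16 genes lie left of 0, of which 5 lie above 0 once corrected for GC content and length.

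The wild-type rescue library was then set against the knockdown library. Of the 16 members, 4 were lower (24.8% of all tested genes) and 2 were higher (25.9%). Lower were mt-Rnr1 at -0.96 (-1.004 to -0.92), mt-Rnr2 at -0.98 (-1.01 to -0.95), ND6 at -0.36 (-0.39 to -0.32) and ND1 at -0.34 (-0.35 to -0.33). Higher were CYTB at 0.32 (0.31 to 0.33) and COX2 at 0.33 (0.27 to 0.38). With the correction for GC content and length, ND6 (-0.031) and ND1 (-0.077) no longer reached 1.2-fold. For both rRNAs, CYTB and COX2, the wild-type rescue and the control thus lay on the same side of the knockdown library. For ND1 and ND6 they lay on opposite sides. These ratios use the same shYthdf2_EV library as those above, so the 2 sets of values are not independent.

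The remaining mRNA genes differed by less than 1.2-fold between these libraries before that correction. ND2 was at -0.25 (-0.27 to -0.23), COX1 at -0.16 (-0.17 to -0.16) and ATP6 at 0.24 (0.17 to 0.31). The intervals of COX3, ATP8, ND3, ND4L and TrnP held 0. The median of the 13 mRNA genes was -0.05 (0.003 for all tested genes), with 7 below 0 and 6 above. The 1420 nuclear genes of like GC content had a median of -0.25, and relative to nuclear genes of the same GC content and length the median of the 13 became 0.23, on the other side of 0. ND2, COX1, ND3, ND4 and ND5 turned with it, and TrnP turned the other way. In that setting 2 members were lower, both rRNAs. The 5 higher were COX2 (0.56), CYTB (0.55), ATP6 (0.53), ATP8 (0.42) and ND3 (0.28). Counting calls in it was chosen after seeing the data. Without the 6 genes copied over more than 50% of their windows, an alternative chosen after seeing the data, the uncorrected median was -0.16.

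In the mutant library, all 16 members lay below the knockdown library. The count was 12 lower (20.6% of all tested genes) and 0 higher (16.8%). Among the 13 mRNA genes 10 were lower, with a median of -0.41 beside 0.007 for all tested genes. The range ran from COX1 at -0.05 (-0.05 to -0.04) and ND5 at -0.02 (-0.03 to -0.003) to ATP8 at -1.10 (-1.57 to -0.65), the latter on 116 reads in shYthdf2_Mut. This pattern changed with the correction for GC content and length, and the cause of that change was not tested. Relative to nuclear genes of the same GC content and length, 3 members stayed lower, which were mt-Rnr1 (-0.51), ATP8 (-0.29) and COX3 (-0.28). TrnP was higher (0.92), and COX1, ND4L, ND5 and ND6 lay above 0 as well. Only 10 of the fitted nuclear genes were shorter than ND3, so ATP8, ND4L and TrnP lie beyond most of the fit. Before that correction, genes without a copied window were among the lower ones, with ND1 at -0.41 (-0.43 to -0.40), ND6 at -0.42 (-0.46 to -0.39) and ND2 at -0.36 (-0.38 to -0.34). CYTB was at -0.17 (-0.18 to -0.16).

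COX1, CYTB and ND5, which hold most reads, differed least here, and the summed reads of the 13 mRNA genes gave -0.13, less than the median. mt-Rnr1 was at -0.74 (-0.78 to -0.70) and mt-Rnr2 at -0.20 (-0.22 to -0.17), which left them at 505 and 665 RPKM, against 409 and 487 in shscr_EV. With the correction for GC content and length the mRNA median was -0.16. Without it the median was -0.41, beside 0.05 for the 1420 nuclear genes of like GC content.

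The mutant and the wild-type rescue were also compared directly. Of the 16 members, 8 were lower in the mutant (30.7% of all tested genes) and 1 was higher (27.6%), which was mt-Rnr2 at 0.78 (0.75 to 0.82). mt-Rnr1 was at 0.23 (0.18 to 0.27). CYTB was lower at -0.50 (-0.51 to -0.49), with 296357 reads against 432504, while COX1 was at 0.11 (0.11 to 0.12). The other lower genes were COX2 at -0.86 (-0.92 to -0.80), ATP8 at -1.21 (-1.68 to -0.76), ATP6 at -0.74 (-0.83 to -0.66), COX3 at -0.56 (-0.65 to -0.47), ND3 at -0.65 (-1.07 to -0.21), ND4L at -0.35 (-0.57 to -0.13) and TrnP at -0.41 (-0.57 to -0.24).

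Of the 7 lower mRNA genes, 6 were those of the low run, and CYTB was the seventh. The median of the 13 was -0.35 (-0.01 for all tested genes), and without the 6 genes copied over more than 50% of their windows it was -0.075. The sum of ATP6 and Gm10925 reads was 28806, 19674, 20830 and 11969 in the 4 libraries, so the copy was low in the mutant library with the gene. ND4 was at -0.26 (-0.27 to -0.24), just short of 1.2-fold, and ND1, ND2, ND5 and ND6 were between -0.11 and 0.07. The 1420 nuclear genes of like GC content had a median of 0.30 in this comparison. With the correction for GC content and length 7 members were lower and 2 higher, ND4 among the lower, while ND4L (0.098) and TrnP (1.02) lay above 0.

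The nuclear genes that transcribe, copy and process mitochondrial RNA were read as a list of 52, all with a mean count of at least 10. Their median log2 ratios were 0.08 in knockdown against control, -0.03 in wild-type rescue against knockdown, -0.01 in mutant against knockdown and 0.005 in mutant against wild-type rescue. In knockdown against control 10 were lower and 12 higher, beside 27.1 and 27.5% of all tested genes. The lowest were Tfb2m, the transcription initiation factor of mitochondrial RNA polymerase, at -0.72 (-0.95 to -0.50), Trit1, which modifies tRNAs, at -0.44 (-0.63 to -0.26) and Fastkd1, which acts on mitochondrial RNA stability, at -0.42 (-0.56 to -0.27). Tfb2m had 799 reads in shscr_EV, 553 in shYthdf2_EV, 761 in shYthdf2_WT and 487 in shYthdf2_Mut, low in the same libraries as CYTB per COX1 read.

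The highest were Mrm2, the methyltransferase of the large subunit rRNA, at 0.89 (0.62 to 1.18), Fastkd5, which processes mRNAs that no tRNA flanks, at 0.75 (0.56 to 0.94), and Mterf1a, a termination factor that binds just after the rRNA genes, at 0.55 (0.17 to 0.94). Mrm2 had 317, 670, 400 and 509 reads in shscr_EV, shYthdf2_EV, shYthdf2_WT and shYthdf2_Mut, and Fastkd5 had 704, 1346, 805 and 1116. Both were highest in the knockdown library and second in the mutant, the order of rRNA reads per 100 mRNA reads. With 4 libraries these likenesses are descriptions, and no relation between the genes was tested.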

How the data were processed

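Poly(A)+ RNA of mouse ESCs was sequenced as stranded, 150-base paired-end libraries on a NovaSeq instrument. The deposited values were read counts per gene and the length in bases of each gene's exons. Per the file headers, the authors made the counts with featureCounts 2.0.3 on mm39 RefSeq exons, each mate counted singly, without strand, multi-mapping or overlap options, so reads at several places or over several genes were left out. The labels name mm10 instead. The submitters' processing notes also name fastp 0.19.4, HISAT2 2.2.1 and DESeq2 1.40.2. The study's methods describe replicates, but the labels give 1 library per group.

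From these counts, shares of reads, RPKM and log2 ratios were computed with a prior count of 0.5 and TMM factors (edgeR 4.0.16, R 4.3.3; Python 3.11.15, pandas 2.3.3, numpy 2.4.6, scipy 1.17.1, matplotlib 3.10.9). Each read pair counts as 2 reads, so the 95% Clopper-Pearson intervals of ratios used pairs. Wilson intervals were used for shares and took each read singly, so they are narrower than intervals made on pairs. No test was possible with 1 library per group. Genes needed a mean count of at least 10. The script was tested on simulated data. Copies were sought in GENCODE vM21 transcripts (GRCm38), in which all 37 chromosome M rows have the same coordinates as in mm39. Every member was named, and of the 52 factors the 3 highest and 3 lowest in knockdown against control among those with a mean count of at least 50. Members and lists were chosen with earlier results of these data known. Alternatives were DESeq2 1.42.0 size factors, total counts, TMM on nuclear genes, a prior count of 5, count limits of 1 and 50, a 2-fold limit, calls whose interval leaves out 0, a GC and length correction, and mRNA genes alone.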

Additional observations from a re-analysis of the deposited data

How the results depend on the processing

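Size factors of DESeq2, total counts and TMM on nuclear genes alone shifted members' log2 ratios by at most 0.044, and a prior count of 5 by at most 0.0302. Under these settings no member called at 1.2-fold changed sign, and each comparison kept its count of called members, as it did with mean count limits of 1 and 50. With total counts the knockdown against control split was 5 lower and 4 higher in place of 6 and 3, and the mRNA median was -0.19. Leaving out intervals that hold 0 gave 8 calls in that comparison in place of 9. At 2-fold, 1, 0, 1 and 1 members were called, where 1.2-fold called 9, 6, 12 and 9. The order is knockdown against control, wild-type rescue against knockdown, mutant against knockdown and mutant against wild-type rescue. Of all 18586 tested genes, 1060, 1043, 630 and 1154 were at least 2-fold lower, and 1320, 957, 492 and 1001 higher.

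The GC and length correction changed most. Fitted on 10510 nuclear genes, it gave mRNA medians of -0.60, 0.23, -0.16 and -0.40 in the same order. It called 14 members (12 lower, 2 higher), 7 (2 and 5), 4 (3 and 1) and 9 (7 and 2), a count chosen after seeing the data. The share of all tested genes called in this setting was not computed, so these counts have no background beside them. Members called before it that turned sign were TrnP against control (-0.18), ND4L (0.23), ND6 (0.0042) and TrnP (0.92) in mutant against knockdown, and ND4L (0.098) and TrnP (1.02) in mutant against wild-type rescue. With members below 1.2-fold included, 2, 6, 5 and 5 of 16 turned. Only 10 of the fitted genes were shorter than ND3, so TrnP, ATP8 and ND4L lie beyond most of the fit. The median of -0.60 in knockdown against control was the value of ND4L. Alternatives chosen after seeing the data gave medians without the 6 copied genes of -0.22, -0.16, -0.36 and -0.075, and summed reads gave -0.39, -0.08, -0.13 and -0.056.

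The mitochondrial share, in the order shscr_EV, shYthdf2_EV, shYthdf2_WT and shYthdf2_Mut, was 8.32, 6.55, 6.23 and 5.98% with mRNA genes alone and 7.97, 6.37, 5.95 and 5.84% without the copied genes, the same order of libraries. Leaving out genes by their copies in the whole nuclear genome was planned and not run, since annotated transcripts were used in its place. With 1 library per group, no replicate could be left out. Except where the setting itself removes genes or reads, the cause of a change was not tested.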
